A study of Saccharomyces cerevisiae with 39 samples.

Results

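Stable unannotated transcripts (SUTs) of budding yeast were followed across strains with altered subunits of the RNA exosome. The members were the features whose identifiers name the SUT catalogue used by the authors and which had at least 10 counts in at least 3 of the 39 libraries. Of the 847 SUT rows among 8898 features, 707 met this rule, and 140 did not, 104 of which had no count in any library. The row SUTs288 lies beside the gene RRP46, which some strains carried on a plasmid, so it was set apart and the counts below cover the other 706. A row is called by its number in the files, as in SUTs87. These numbers are not those of the reference annotation: 9 SUTs have a name there, and for 0 of the 9 did the row of the same number lie among genes of that chromosome. No coordinates, strands or sequences are therefore given for SUTs. The rows run in chromosomal order, so each SUT is placed by the gene rows on either side of it, which does not say whether the SUT lies between these genes or overlaps them. Because strand and overlap handling are not given in the sources used here, reads of the neighbouring genes may be part of a SUT's count, and their part in the results was not tested.

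SUTs are noncoding RNA polymerase II transcripts that are visible in wild-type cells, and many start at the nucleosome-depleted regions from which genes are transcribed in the other direction. Cryptic unstable transcripts (CUTs) arise from the same kinds of places, but end early through the Nrd1-Nab3-Sen1 complex, are oligoadenylated by the TRAMP complex and are destroyed in the nucleus by the exosome with its 3′ exonuclease Rrp6. SUTs are more often cleaved and polyadenylated like mRNAs and are in large part decayed in the cytoplasm, while a share of their synthesis also ends in nuclear decay. Rrp4 and Rrp40 are cap subunits of the exosome, Rrp45 and Rrp46 belong to its central ring, and Rrp6 is the nuclear catalytic subunit.

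There were 13 groups of 3 cultures, each of 10 mL in leucine-free minimal medium, and growth was for 5 h at 37 °C. In every strain the chromosomal copy of an exosome gene was deleted, in the controls as well, and the gene was supplied from a centromeric LEU2 plasmid (pRS315). The RRP4 and rrp4-G226D groups were MATα ura3Δ0 leu2Δ0 his3Δ1 lys2Δ0 rrp4Δ::NEO. The RRP40, rrp40-W195R and rrp40-S87A groups were MATa ura3Δ0 leu2Δ0 his3Δ1 rrp40Δ::NEO. The RRP45 and rrp45-I15P groups were MATα ura3Δ0 leu2Δ0 his3Δ1 rrp45Δ::NEO. The RRP46, rrp46-Q86I, rrp46-L127T and rrp46-L191H groups were MATα ura3Δ0 leu2Δ0 his3Δ1 lys2Δ0 rrp46Δ::kanMX4. The RRP6 and rrp6Δ groups were MATa ura3Δ0 leu2Δ0 his3Δ1 met15Δ0 rrp6Δ::kanMX4, and the rrp6Δ group carried the plasmid with no gene. A group is called by its plasmid, so RRP6 in capitals is a control group where libraries are meant. The missense alleles model disease-linked changes, per the series title. The comparison of rrp40-W195R and that of rrp40-S87A share the RRP40 libraries, and the 3 rrp46 comparisons share the RRP46 libraries. The labels call the 3 cultures of a group biological replicates and give no batch.

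The libraries held 17244127 to 53642418 counts with a median of 35937895. Receptor genes of the mating types went with the labels: STE2, the α-factor receptor of MATa cells, was at 320.4 to 610.1 CPM (each library's counts scaled to the same total) in the families of RRP40 and RRP6, the MATa strains, and at 5.90 to 20.4 CPM in the others, and STE3, the a-factor receptor of MATα cells, was at 6.24 to 20.6 and 99.9 to 322.6 CPM. All 6 MATa genes of the list were higher in every MATa library than in every MATα library, while of its 4 MATα genes STE3 and MF(ALPHA)1 stood apart the other way and SAG1 and MF(ALPHA)2 overlapped. Counts of the RRP6 gene were 5.17 to 6.38 CPM in rrp6Δ, 584 to 747 CPM in the RRP6 group with the plasmid gene, and 107 to 165 CPM elsewhere. Of the protein-coding rows, 255 of 6007 were listed at 0 in every library, and 175 of the 706 SUTs (24.8%) lie beside such a row, among them SUTs254 beside MIG2 and SUTs643 beside YGP1.

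The summed level of all SUT rows was highest in rrp6Δ, followed by rrp4-G226D. In bulk RNA fewer cells of a type and less RNA per cell cannot be told apart, and this holds for all levels here. SUTs made up 0.534% of all counts in RRP6 and 1.25% in rrp6Δ, where the 3 libraries gave 1.233%, 1.224% and 1.280%. In CPM of the library total, the sum was 5346 ± 141 in RRP6 and 12461 ± 302 in rrp6Δ (SD, n = 3, as for the sums that follow). It was 4556 ± 115 in RRP4 and 8077 ± 65.7 in rrp4-G226D. It was 3855 ± 100 in RRP40, 5308 ± 351 in rrp40-W195R and 3887 ± 58.1 in rrp40-S87A. It was 4113 ± 126.97 in RRP46, 5313 ± 164 in rrp46-L191H, 3915 ± 50.8 in rrp46-L127T and 3751 ± 258 in rrp46-Q86I. In the RRP45 family it was 4381 ± 79.3 for RRP45 and 4448 ± 37.8 for rrp45-I15P. Every library of rrp4-G226D, rrp6Δ, rrp46-L191H and rrp40-W195R lay above every library of its control, and those of rrp46-L127T lay just below theirs, whereas rrp40-S87A, rrp46-Q86I and rrp45-I15P overlapped theirs. The sums depended on scaling: the ratio of rrp6Δ to RRP6 was 2.33 by library totals and 1.54 by TMM factors (trimmed mean of M values, edgeR's scaling, which sets the bulk of the features level). The ratios by library totals and by TMM were 1.77 and 1.41 for rrp4-G226D, 1.377 and 1.09 for rrp40-W195R, and 1.29 and 1.15 for rrp46-L191H. No test was made on the sums.

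**Figure D1:**
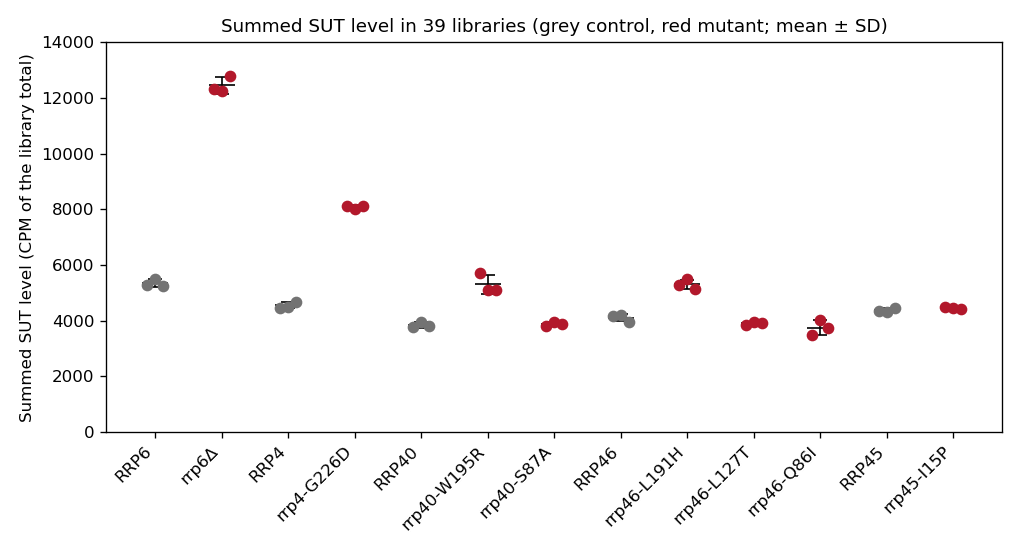
Summed counts of all SUT rows but SUTs288 in each of the 39 libraries, in CPM of the library total, with the group mean and SD; control groups are grey and mutants red. The rrp6Δ libraries (mean 12461) stand above all others, and rrp4-G226D (mean 8077) comes next.

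The libraries of each mutant and of its family's control were compared by edgeR's quasi-likelihood test with TMM scaling, and a SUT was called at a Benjamini-Hochberg adjusted p under 0.05 over all features tested. Most SUTs rose in rrp6Δ and rrp4-G226D, more rose than fell in rrp46-L191H and in rrp40-W195R, and were called in small numbers in the other 4 mutants. In rrp6Δ 560 of the 698 SUTs tested were higher (80.2%) and 29 lower, against 42.6% and 40.9% of all features. In rrp4-G226D 490 of 690 were higher and 20 lower, against 36.1% and 35.9% of all features. In rrp40-W195R 237 of 666 were higher and 37 lower, against 26% and 26.5%. In rrp46-L191H 262 of 672 were higher and 74 lower, against 31.4% and 31%. The median log2 fold change of the SUTs was 0.81, 0.54, 0.27 and 0.18 in these 4 mutants, while protein-coding genes had medians of -0.17, -0.09, -0.05 and -0.03 and CUTs of 1.24, 0.74, 0.48 and 0.38. CUTs thus had the larger median in each of the 4, and this difference between the classes was not tested.

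The sizes carry a scaling shift. When libraries were scaled by their totals instead of TMM, the median of all features moved up on the log2 scale: by 0.60 for rrp6Δ, 0.33 for rrp4-G226D, 0.33 for rrp40-W195R and 0.17 for rrp46-L191H. The SUT median minus the median of all features was the same under both, at 0.78, 0.52, 0.24 and 0.18. Under library totals the SUTs called higher and lower became 662 and 4, 614 and 4, 465 and 11, and 349 and 55. Over all features these counts were 5806 and 1128 of 7828, 5148 and 929 of 7703, 4770 and 590 of 7498, and 3594 and 1276 of 7550. The share of higher among the SUT calls went from 86.5% to 97.7% in rrp40-W195R under that change. Over all features that share went from 49.5% to 89.0%. A SUT that fell under TMM by less than the shift therefore does not fall under library totals, and this is stated below for each SUT concerned.

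Few SUTs were called in the other 4 mutants, whose scaling shifts were 0.06, -0.02, -0.04 and -0.04 for rrp40-S87A, rrp46-L127T, rrp46-Q86I and rrp45-I15P. In rrp40-S87A 10 of 653 SUTs were higher and 21 lower, against 7.69% and 7.8% of all features, with a median log2 fold change of -0.01. By library totals the split was 25 higher and 15 lower, so the share of higher among the calls went from 32.3% to 62.5%. Over all 7385 features library totals gave 1028 higher and 340 lower, and that share went from 49.7% to 75.1%. In rrp46-L127T edgeR called 0 of 663 higher and 10 lower, against 2.63% and 2.62% of all features, where 84 SUTs had an unadjusted p under 0.05 and DESeq2 called 0 higher and 14 lower. In rrp46-Q86I edgeR called 0 of 672 higher and 2 lower, against 0.41% and 0.106%, where 87 had an unadjusted p under 0.05 and DESeq2 called 0 higher and 4 lower. In rrp45-I15P edgeR called 1 of 673 higher and 0 lower, against 0.0266% and 0%, where 46 had an unadjusted p under 0.05 and DESeq2 called 7 higher and 0 lower. The medians in these last 3 were -0.05, -0.12 and 0.03. Over all features, an unadjusted edgeR p under 0.05 was found for 1630 of 7494, 984 of 7570 and 735 of 7520 in these 3 mutants. For DESeq2 no count over all features is given.

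Counted in both directions, the share of all features called was 83.5% for rrp6Δ, 71.9% for rrp4-G226D, 52.5% for rrp40-W195R and 62.4% for rrp46-L191H. It was 15.5% for rrp40-S87A, 5.24% for rrp46-L127T, 0.515% for rrp46-Q86I and 0.0266% for rrp45-I15P. Changes of at least 2-fold were rare in the last 4 mutants. In rrp40-S87A edgeR called 0 SUTs at least 2-fold higher and 0 lower, against 0.0542% and 0.135% of all features. For rrp46-L127T these counts were 0 and 2, against 0.04% and 0.147%. They were 0 and 0 for rrp46-Q86I, against 0.0132% and 0.0264%, and 0 and 0 for rrp45-I15P, against 0% and 0%.

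**Figure D2:**
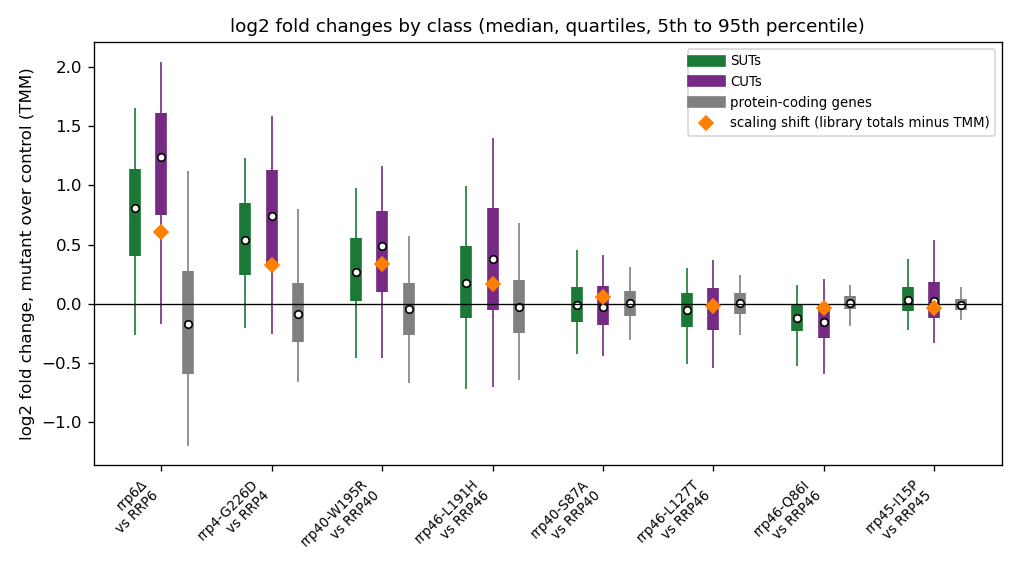
log2 fold changes against the family's control under TMM scaling for SUTs, CUTs and protein-coding genes in the 8 comparisons: the median, the quartiles (thick line) and the 5th to 95th percentiles (thin line), with diamonds at the shift that library totals would add. SUT medians fall from 0.81 in rrp6Δ to 0.18 in rrp46-L191H and lie between -0.12 and 0.03 in the other 4 mutants.

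Few SUTs entered the tests through the mutant libraries alone. In rrp6Δ 14 SUTs reached the count minimum only in the mutant, 16 did in rrp4-G226D, 17 in rrp40-W195R and 2 in rrp46-L191H. Of the SUTs that reached it in a control library, 553 of 689 were higher in rrp6Δ, 488 of 686 in rrp4-G226D, 233 of 660 in rrp40-W195R and 262 of 672 in rrp46-L191H. A fit with no filter over all 706 gave medians of 0.81, 0.53, 0.26 and 0.17. At the edge of the rule, SUTs150, SUTs190, SUTs252, SUTs424 and SUTs747 were just inside with the minimum reached in 3 libraries, and their highest counts were 16, 14, 27, 27 and 13. Just outside were 8 rows that reached it in 2 libraries, with highest counts of 10 to 41.

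Deletion of RRP6 raised SUTs over a broad range, with the 5th and 95th percentiles of the log2 fold change at -0.26 and 1.66 and the extremes at -1.51 and 2.21. At least 2-fold rises were called for 245 SUTs and falls of that size for 3, against 16.6% and 7.64% of all features. The SUTs described singly in this and the following comparisons were called and had no overlap between mutant and control libraries. Except in rrp46-Q86I, they had a mean of at least 5 CPM (TMM-adjusted unless said otherwise) and were the largest changes among those. SUTs198, between the rows of RMD6 and the D-lactate dehydrogenase gene DLD3, had 18.6, 18.3 and 20.3 CPM in rrp6Δ and 3.41, 5.51 and 4.12 CPM in RRP6. Its rise was 2.18 (log2; SE 0.125; adjusted p = 2.92e-10), while DLD3 fell by 0.71. SUTs87 lies between the divergent genes ATG31, for autophagy, and SES1, for seryl-tRNA synthetase. It had 52.2, 56.4 and 60.1 CPM in rrp6Δ and 13, 14.4 and 12.8 CPM in RRP6, a rise of 2.08 (SE 0.07; edgeR adjusted p = 2.89e-13). For both SUTs every deletion library lay above all control libraries by several fold.

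The next 4 largest rises in rrp6Δ were of lower or similar level. SUTs757, beside the DNA damage checkpoint gene RAD17, had 12.2, 11.2 and 11.6 CPM against 2.86, 3.17 and 2.84 CPM, a rise of 1.99 (SE 0.108; edgeR adjusted p = 4.82e-11). SUTs501, beside the mitochondrial fission gene DNM1, had 8.69, 7.67 and 8.68 CPM against 1.97, 2.65 and 2.27 CPM, a rise of 1.89 (SE 0.131). SUTs254 lies between YPT32, for a Rab GTPase of the Golgi, and the glucose repressor gene MIG2. It had 34.5, 34.3 and 36.6 CPM against 9, 8.88 and 10.9 CPM, a rise of 1.87 (SE 0.0803; edgeR adjusted p = 2.98e-12). SUTs478, beside the primase subunit gene PRI2, had 23.2, 22.8 and 20.9 CPM against 5.28, 7.17 and 6.61 CPM, a rise of 1.83 (SE 0.101). All 6 of these rises were larger under library totals, by the shift of 0.60.

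The 3 largest falls in rrp6Δ were smaller than the rises and shrank under library totals. SUTs643, whose row precedes that of YGP1, a secreted glycoprotein gene listed at 0, had 27.3, 25.5 and 31.1 CPM against 78.0, 61.1 and 77.3 CPM. Its fall was -1.37 (log2; SE 0.107; edgeR adjusted p = 2.75e-06) and -0.76 under library totals. SUTs633, beside the TRAMP poly(A) polymerase gene TRF5, had 15.6, 15.5 and 17.0 CPM against 37.0, 32.1 and 34.0 CPM, a fall of -1.10 (SE 0.0708) and -0.50 under library totals. SUTs656, between PUB1 and the proteinase B inhibitor gene PBI2, had 14.5, 13.9 and 15.2 CPM against 27.9, 25.6 and 28.3 CPM, a fall of -0.91 (SE 0.0713) and -0.31 under library totals. The neighbouring genes PUB1 and PBI2 fell as well, by 0.90 and 2.50.

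In rrp4-G226D 109 SUTs were called and at least 2-fold higher and 1 lower, against 7.85% and 1.04% of all features. The largest rise was that of SUTs276, whose row follows the dubious frame BRP1. It had 21.8, 19.0 and 19.8 CPM in rrp4-G226D and 4.45, 4.49 and 5.44 CPM in RRP4, a rise of 2.04 (SE 0.0926; edgeR adjusted p = 3.34e-13). SUTs773, beside FLC1, a gene for an FAD transporter, had 13.3, 12.2 and 10.7 CPM against 2.26, 3.40 and 3.68 CPM, a rise of 1.87 (SE 0.124). SUTs399, between the convergent genes PHO86 and NCA3, of which NCA3 is listed at 0, had 56.8, 66.0 and 56.3 CPM against 16.1, 20.7 and 21.3 CPM. Its rise was 1.59 (SE 0.0939; edgeR adjusted p = 6.62e-08). The mutant and control libraries of the 3 SUTs stood well apart.

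SUTs87 was among the largest rises here too, with 17.0, 14.0 and 14.2 CPM against 5.42, 5.36 and 5.39 CPM (1.47; SE 0.0954; edgeR adjusted p = 4.8e-11). SUTs99, beside the splicing factor gene SLU7, had 9.98, 9.35 and 11.7 CPM against 3.61, 3.04 and 4.44 CPM, a rise of 1.46 (SE 0.13). SUTs587, beside GIS4, had 14.4, 14.8 and 13.3 CPM against 5.1, 4.8 and 5.61 CPM, a rise of 1.45 (SE 0.0911). Under library totals these rises were larger by the shift of 0.33.

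Among the falls in rrp4-G226D were SUTs633 and SUTs564, both also lower in rrp6Δ under TMM, where SUTs564 lost its call under library totals (-0.17; edgeR adjusted p = 0.093). SUTs633 had 17.6, 19.0 and 20.3 CPM against 35.6, 40.5 and 34.3 CPM, a fall of -0.96 (SE 0.0695; edgeR adjusted p = 3.43e-10). SUTs564, beside the ribosomal protein gene RPL6B, had 12.2, 11.9 and 12.3 CPM against 17.2, 20.6 and 16.1 CPM, a fall of -0.57 (SE 0.0848). SUTs318, beside the phosphofructokinase gene PFK1, had 19.7, 21.6 and 22.4 CPM against 22.9, 35.9 and 28.9 CPM. Its fall of -0.49 had an adjusted p of 0.0265 (edgeR), became -0.15 with an adjusted p of 0.28 under library totals, and lost its call without RRP4 replicate 3 or without any of the mutant replicates.

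In the RRP40 family, rrp40-W195R raised SUTs and rrp40-S87A did so in few cases. In rrp40-W195R 29 SUTs were called and at least 2-fold higher and 4 lower, against 2.8% and 1.47% of all features. SUTs254 had 14.5, 14.0 and 11.4 CPM in rrp40-W195R and 4.95, 4.89 and 4.49 CPM in RRP40, a rise of 1.47 (SE 0.119; edgeR adjusted p = 4.74e-06). SUTs427 lies between the divergent genes IME1, the master regulator of meiosis, and RPL43B, for a ribosomal protein. It had 14.2, 15.3 and 16.8 CPM against 6.74, 6.83 and 8.16 CPM, a rise of 1.09 (SE 0.106). SUTs239, between IES1, for an INO80 chromatin remodelling subunit, and YFL012W, had 20.0, 20.2 and 16.4 CPM against 8.83, 9.87 and 8.08 CPM, a rise of 1.08 (SE 0.109). The groups were separated for each of these SUTs.

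SUTs560, beside the bromodomain gene BDF1, rose by 1.05 (SE 0.105) in rrp40-W195R, with 14.8, 12 and 14.4 CPM against 6.96, 6.45 and 6.61 CPM. SUTs87 rose by 0.91 (SE 0.134; edgeR adjusted p = 0.000225) and SUTs264, beside SRM1, for the exchange factor of the nuclear transport GTPase, by 0.91 (SE 0.104). SUTs164, between the convergent genes QDR1, a drug transporter gene, and RPI1, had 5.96, 2.53 and 5.13 CPM against 12.5, 11.9 and 10.9 CPM, a fall of -1.34 (SE 0.241; edgeR adjusted p = 0.00218). RPI1 itself fell by 1.35. SUTs466, between the cell wall mannoprotein genes CWP2 and CWP1, had 31.5, 47.1 and 33.2 CPM against 81.5, 90.3 and 78.8 CPM, a fall of -1.17 (SE 0.149), and CWP1 fell by 1.68. SUTs713, beside the cytochrome c1 gene CYT1, had a log2 fold change of -0.998 (SE 0.141), from 11.8, 11.9 and 9.18 CPM to 5.99, 6.04 and 4.57 CPM.

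In rrp40-S87A SUTs427 rose by 0.60 (SE 0.102; edgeR adjusted p = 0.00184), with 9.65, 9.96 and 10.3 CPM against 6.11, 6.22 and 7.43 CPM in the same control libraries. SUTs631, beside the iron transporter gene FET4, had 12.8, 13.3 and 13.7 CPM against 7.96, 10.2 and 11 CPM, a rise of 0.46 (SE 0.11; edgeR adjusted p = 0.0135) that missed the threshold at 0.061 without rrp40-S87A replicate 3. SUTs164 had 4.79, 5.76 and 8.59 CPM against 11.3, 10.8 and 9.90 CPM, a fall of -0.74 (edgeR adjusted p = 0.0362) that was lost without RRP40 replicate 1 or 2 or rrp40-S87A replicate 2, at up to 0.13. SUTs713 had 6.22, 6.93 and 6.53 CPM against 10.7, 10.8 and 8.36 CPM, a fall of -0.61 (SE 0.113).

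Compared directly, rrp40-W195R had 221 of 667 SUTs higher than rrp40-S87A and 27 lower, against 18.6% and 20.2% of all features and 38.8% in either, with a median log2 difference of 0.29 and a scaling shift of 0.26. Of these, 23 and 3 were at least 2-fold, against 2.32% and 0.693% of all features. By library totals the counts were 432 and 7, against 4308 and 442 of all 7509 features. Among SUTs of at least 5 CPM without overlap, the largest upward differences were SUTs239 at 1.36 (edgeR adjusted p = 6.67e-06) and SUTs254 at 1.29 (edgeR adjusted p = 1.17e-05). The largest downward ones were SUTs466 at -0.79 and SUTs433 at -0.78.

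In the RRP46 family rrp46-L191H raised SUTs, while edgeR called none higher in the other alleles. In rrp46-L191H 33 SUTs were called and at least 2-fold higher and 17 lower, against 3.56% and 2.81% of all features. SUTs285, between the divergent genes ART5 and ROM1, the latter for an exchange factor of Rho1, had 11.3, 10.8 and 11.6 CPM in rrp46-L191H and 3.38, 3.33 and 2.01 CPM in RRP46. Its rise was 1.96 (SE 0.149; edgeR adjusted p = 2.99e-07). SUTs239 had 24.2, 26.4 and 25 CPM against 8.48, 9.13 and 8.46 CPM, a rise of 1.54 (SE 0.067). SUTs680, between the siderophore transporter gene ENB1 and the isomaltase gene IMA2, had 17.1, 16.7 and 15.6 CPM against 5.60, 5.11 and 6.48 CPM, a rise of 1.52 (SE 0.0924). The triplicates were tight and the groups apart.

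SUTs481, between PTM1 and RGT1, for the repressor of hexose transporter genes, had 86.1, 89.2 and 88.1 CPM against 35.4, 31.9 and 31.6 CPM, a rise of 1.42 (SE 0.0506; edgeR adjusted p = 4.57e-10), and RGT1 rose by 0.93. SUTs756, between MSC6 and GDS1, had 41.0, 41.7 and 43.1 CPM against 16.9, 17.8 and 13.2 CPM, a rise of 1.40 (SE 0.0911). SUTs560 rose by 1.383 (SE 0.114), from 7.17, 7.17 and 5.01 CPM to 16.9, 16.2 and 17.2 CPM.

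Among SUTs of at least 5 CPM without overlap, the largest falls in rrp46-L191H were between -1.31 and -1.52. The lowest value of any SUT tested there was -3.18. SUTs106, between the histone H2A gene HTA1 and the adenylate kinase gene ADK1, had 8.91, 13.4 and 10.9 CPM against 31.7, 33.8 and 30.4 CPM, a fall of -1.52 (SE 0.114; edgeR adjusted p = 1.49e-06). HTA1 and ADK1 fell as well, by 0.90 and 0.58. SUTs466 had 20.5, 29.5 and 28.3 CPM against 80.5, 62.4 and 76.1 CPM, a fall of -1.48 (SE 0.163). SUTs433, between the divergent genes RSM7, for a mitochondrial ribosomal protein, and YJR115W, had 5.89, 6.32 and 4.51 CPM against 14.2, 13.1 and 14.6 CPM, a fall of -1.31 (SE 0.107). The falls were larger than the scaling shift of 0.17 of this comparison.

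In rrp46-L127T, SUTs641, between YNL195C and YNL194C, had 6.99, 7.11 and 6.09 CPM against 11.6, 9.24 and 8.68 CPM, a fall of -0.55 (SE 0.126; edgeR adjusted p = 0.032). SUTs600, beside the mitochondrial alcohol dehydrogenase gene ADH3, had 11.7, 10.0 and 8.32 CPM against 14.1, 13.3 and 13.7 CPM, a fall of -0.47 (SE 0.109; edgeR adjusted p = 0.0333). Both calls were lost, at an adjusted p of up to 0.12, without RRP46 replicate 1 or 2 or mutant replicate 2 or 3, and that of SUTs600 also without RRP46 replicate 3. In rrp46-Q86I both called SUTs were lower, and both had a mean below 5 CPM. SUTs161 had 2.70, 3.13 and 3.15 CPM against 5.16, 4.69 and 4.16 CPM, a fall of -0.64 (SE 0.131; edgeR adjusted p = 0.0474). SUTs592, between the glucose transporter gene HXT2 and CLU1, had 2.04, 2.91 and 2.45 CPM against 5.06, 3.94 and 3.89 CPM, a fall of -0.79 (SE 0.158; edgeR adjusted p = 0.0443). Both calls were lost, at up to 0.23 and 0.24, without RRP46 replicate 1 or mutant replicate 1 or 3, and that of SUTs161 also without RRP46 replicate 2 or mutant replicate 2.

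The single SUT called in rrp45-I15P was SUTs106, with 34.3, 38.6 and 32.1 CPM in the mutant and 22.7, 23.6 and 23.6 CPM in RRP45, a rise of 0.58 (SE 0.0664; edgeR adjusted p = 0.00537). It kept its call when any 1 library was left out, with an adjusted p of up to 0.049.

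Between rrp46-L191H and rrp46-L127T, 233 of 657 SUTs were higher in rrp46-L191H and 33 lower, against 25.6% and 25.9% of all features and 51.5% in either, with a median log2 difference of 0.25 and a scaling shift of 0.20. Of these, 42 and 3 were at least 2-fold, against 3.31% and 1.08% of all features. By library totals the counts were 360 and 18, so the share of higher among the calls went from 87.6% to 95.2%. Over all features that share went from 49.7% to 82.4%. SUTs285 differed by 1.47 (edgeR adjusted p = 7.44e-07) and SUTs254 by 1.46 (edgeR adjusted p = 8.29e-07) upward. SUTs466 differed by -1.01 and SUTs102, beside the vacuolar transporter gene YCF1, by -1.002 downward.

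A few SUTs show how the mutants with many calls compared, here in CPM of the library total. SUTs87 was at 64.7, 69.1 and 74.0 CPM in rrp6Δ, at 10.4, 11.9 and 10.3 CPM in RRP6 and at 2.84 to 19.3 CPM in all other libraries. Its log2 fold changes under TMM, given above for the first 3 mutants, also passed edgeR's test in rrp46-L191H, at 0.57. SUTs239 was at 7.25 to 10.5 CPM in the 15 control libraries, and at 39.9, 40.4 and 43.1 CPM in rrp6Δ. It reached 27.1, 25.9 and 25.5 CPM in rrp4-G226D, 23.0, 22.4 and 18.2 CPM in rrp40-W195R, and 26.0, 28.2 and 25.9 CPM in rrp46-L191H. SUTs254 rose in the same 4 mutants, by 1.87, 1.41, 1.47 and 1.17.

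SUTs427, the SUT beside IME1, followed another order. It was at 5.93, 6.13 and 7.32 CPM in RRP40, 9.92, 10.1 and 10.5 CPM in rrp40-S87A and 16.3, 16.9 and 18.6 CPM in rrp40-W195R. In RRP6 it was already at 24.1, 26.8 and 27.7 CPM and in rrp6Δ at 32.8, 32.3 and 31.7 CPM, a log2 change of -0.30 under TMM that turned to 0.31 under library totals, both past the threshold. SUTs433 was at 13.2, 12.6 and 13.7 CPM in RRP46 and fell to 6.32, 6.76 and 4.67 CPM in rrp46-L191H, whereas it was at 3.35, 2.74 and 2.96 CPM in RRP6 and rose to 10.1, 9.75 and 11.6 CPM in rrp6Δ. SUTs656 was called lower under TMM in 5 comparisons: those of rrp6Δ and rrp46-L191H, both rrp40 alleles and rrp4-G226D. In rrp4-G226D and rrp40-S87A it lost the call under library totals, and in rrp40-S87A also without any of 5 libraries (all but RRP40 replicate 3).

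**Figure D3:**
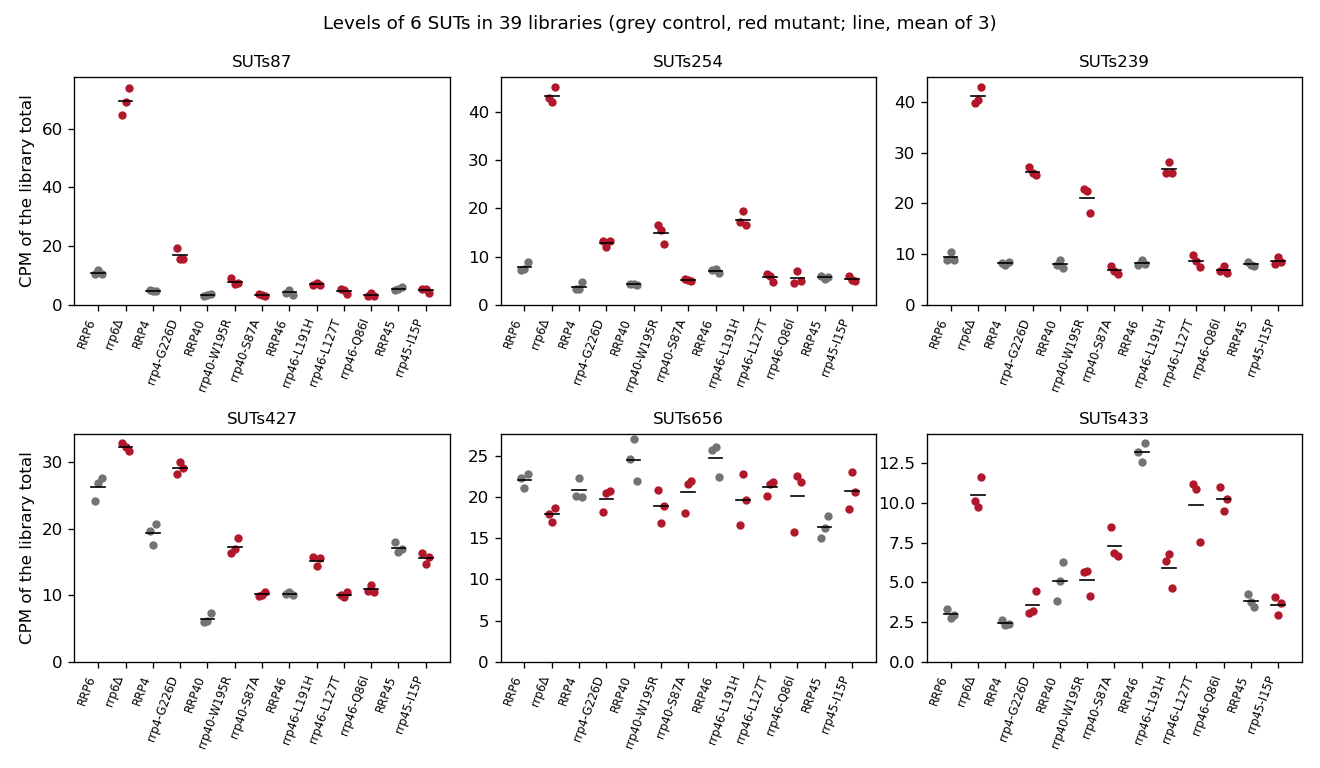
Levels of SUTs87, SUTs254, SUTs239, SUTs427, SUTs656 and SUTs433 in the 39 libraries, in CPM of the library total, with points for libraries and lines for group means. SUTs87, SUTs254 and SUTs239 are highest in rrp6Δ (64.7 to 74.0 CPM for SUTs87), SUTs427 is high in RRP6 and rrp6Δ and low in RRP40, and SUTs433 is high in RRP46 and rrp6Δ.

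SUTs called higher in mutants of different families, whose controls are separate libraries, overlapped. The shares that follow stand beside those of all SUTs tested that were called higher, 80.2% for rrp6Δ, 71.0% for rrp4-G226D, 35.6% for rrp40-W195R and 38.99% for rrp46-L191H. Of those higher in rrp6Δ and in rrp4-G226D, 462 were the same, which was 82.5% of the first list and 94.3% of the second. For rrp6Δ and rrp40-W195R 223 were shared (39.8% and 94.1%), and for rrp6Δ and rrp46-L191H 232 (41.4% and 88.5%). For rrp40-W195R and rrp46-L191H 141 were shared (59.5% and 53.8%). Over all features called higher, the shares of these 4 pairs were 72.0% and 86.5%, 40.9% and 69.9%, 37.3% and 52.5%, and 62.8% and 51.7%. In all, 134 SUTs (19.0% of 706) were higher in the 4 mutants alike and 607 (85.98%) in at least 1, against 10.0% and 60.7% of the 7910 features that met the count rule. Lower in all 4 were 5 SUTs (0.708%) and in at least 1 there were 103 (14.6%), against 11.5% and 55.7%. Called in opposite directions were 5 SUTs between rrp6Δ and rrp4-G226D, 16 between rrp6Δ and rrp40-W195R, and 52 between rrp6Δ and rrp46-L191H. The same count over all features was not made. Across SUTs, which share libraries and neighbours and are not replicates, the log2 fold changes had a Pearson r of 0.71 between rrp6Δ and rrp4-G226D (n = 689), 0.53 between rrp6Δ and rrp40-W195R (n = 665), and 0.28 between rrp6Δ and rrp46-L191H (n = 671). Over all features tested the same r was 0.86 (n = 7684), 0.61 (n = 7487) and 0.38 (n = 7528), larger than among SUTs in these 3 pairs. Between rrp4-G226D and rrp40-W195R it was 0.57 among SUTs and 0.63 over all features. Between rrp40-W195R and rrp46-L191H it was 0.39 and 0.53. Between rrp4-G226D and rrp46-L191H the order was the other way, at 0.56 and 0.54.

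**Figure D4:**
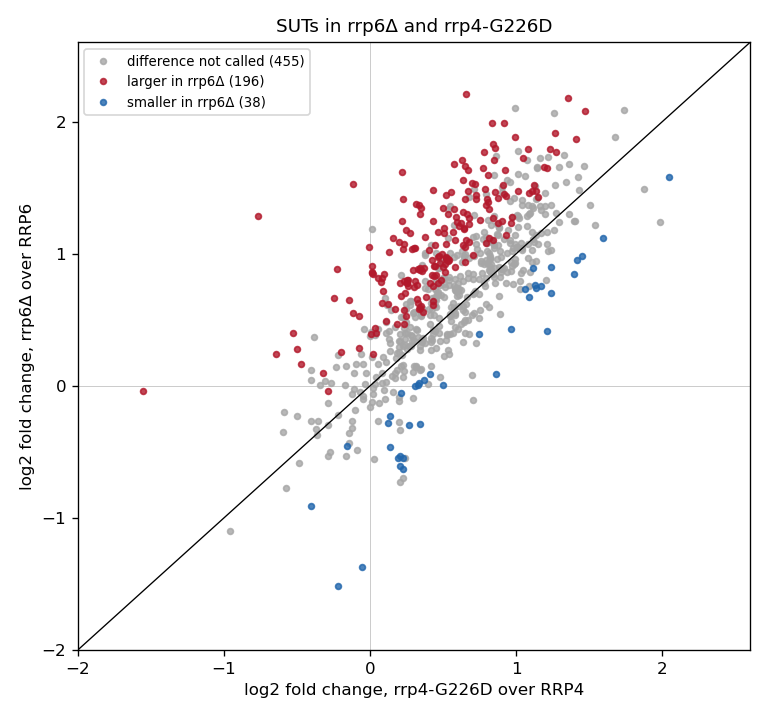
log2 fold change under TMM of 689 SUTs in rrp6Δ (against RRP6) and in rrp4-G226D (against RRP4), coloured by the test of the difference between the effects. Of the points, 196 had a larger log2 change in rrp6Δ, 38 a smaller one and 455 were not called.

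The effects themselves differed for many SUTs when tested by the interaction of strain and family over 12 libraries. Against rrp4-G226D, the change in rrp6Δ was larger for 196 of 700 SUTs and smaller for 38, against 21.4% and 27.2% of all features, with a median difference of 0.24 and a scaling shift of 0.25. By library totals these counts were 366 and 9, and the share of larger among the calls went from 83.8% to 97.6%. Over all features that share went from 44.0% to 80.1%. Against rrp40-W195R 353 of 699 were larger and 22 smaller, against 28.1% and 33.3% of all features, with a median difference of 0.52 and a shift of 0.27, and by library totals 475 and 11. Against rrp46-L191H 392 of 700 were larger and 41 smaller, against 35.6% and 35.7%, with a median difference of 0.57 and a shift of 0.43, and by library totals 561 and 9. Over all features the counts by library totals were 3694 larger and 916 smaller of 7872, 3571 and 1513 of 7857, and 4713 and 1436 of 7863. In either direction 48.6%, 61.4% and 71.3% of all features were called under TMM in the 3 contrasts. Differences of at least 2-fold were 20 larger and 2 smaller against rrp4-G226D (2.36% and 0.838% of all features), 91 and 4 against rrp40-W195R (7.23% and 3.03%), and 181 and 6 against rrp46-L191H (12.3% and 6.79%). The families differ in mating type and markers as well as in the mutated gene, and these cannot be told apart in this contrast.

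In the 4 mutants with many calls, SUTs placed between divergent gene rows had larger median changes than those between convergent rows. By the strands of the gene rows on either side in the reference annotation, 220 SUTs lay between divergent, 430 between tandem and 56 between convergent genes. In rrp6Δ the median log2 fold changes of the 3 kinds were 0.86, 0.82 and 0.61, and 86.2%, 78.9% and 67.3% were higher, against 42.6% of all features. In rrp4-G226D they were 0.70, 0.51 and 0.24, and 82.2%, 68.9% and 43.6% were higher, against 36.1%. For rrp40-W195R they were 0.37, 0.24 and 0.07, and 42.3%, 33.8% and 22.6% were higher, against 26%. For rrp46-L191H they were 0.37, 0.15 and -0.04, and 52.9%, 35.0% and 15.4% were higher, against 31.4%. In both of these mutants the convergent kind fell short of the share of all features. CUTs had the same order in these 4 mutants, with medians of 1.43, 1.17 and 0.78 in rrp6Δ and 0.71, 0.27 and -0.09 in rrp46-L191H. In rrp40-S87A the SUT medians were 0.02, -0.02 and -0.01. They were -0.01, -0.08 and -0.06 in rrp46-L127T and -0.09, -0.13 and -0.16 in rrp46-Q86I. In rrp45-I15P the order was another, with 0.0038, 0.04 and 0.04 for SUTs and -0.04, 0.04 and 0.13 for CUTs. No test was made between the kinds, and the negative medians of convergent rows in rrp46-L191H are smaller than the scaling shift of 0.17.

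**Figure D5:**
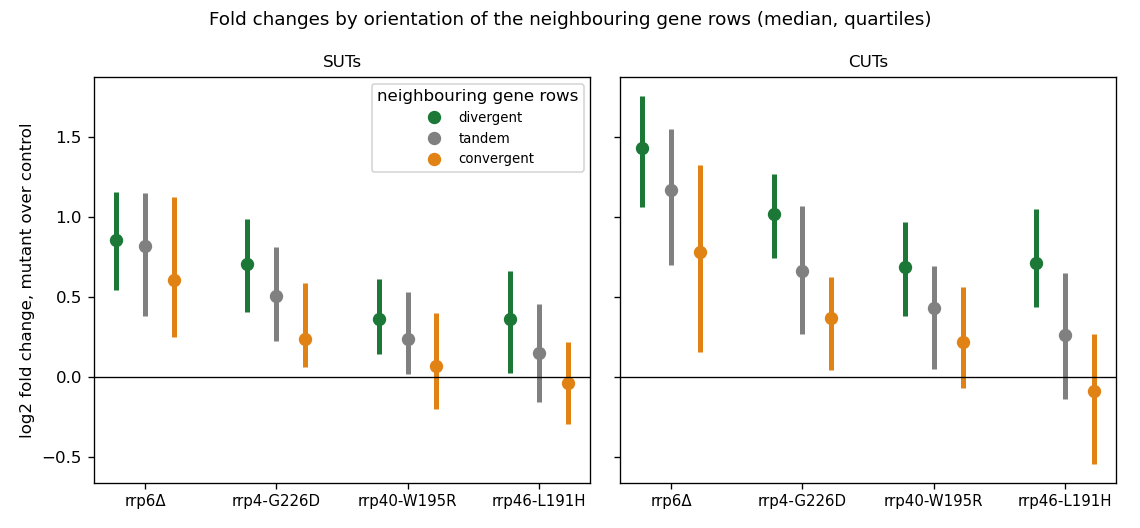
Median and quartiles of the log2 fold change (TMM) of SUTs and CUTs by the orientation of the gene rows on either side, in the 4 mutants with many calls. For SUTs the medians fall from divergent to convergent in each mutant, from 0.86 to 0.61 in rrp6Δ and from 0.37 to -0.04 in rrp46-L191H.

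The changes of SUTs followed those of the neighbouring gene rows weakly. Across the SUTs whose neighbours were both tested, the correlation with the gene before was 0.03 and with the gene after 0.14 in rrp6Δ (n = 493), and 0.16 and 0.20 in rrp46-L191H (n = 456), as a description only. Of the 399 SUTs higher in rrp6Δ with both genes tested, 176 (44.1%) had neither gene called higher and 99 had both called lower. In rrp4-G226D this was 151 of 343 (44.0%) with 65, in rrp40-W195R 103 of 184 (56.0%) with 24, and in rrp46-L191H 64 of 192 (33.3%) with 13. Among all SUTs with both genes tested, both were lower for 131 of 493, 99 of 479, 67 of 448 and 58 of 456 in these 4 mutants. The share of all SUTs with neither gene higher was not counted. The SUTs called lower had a lower neighbour in most cases: 16 of 19 in rrp6Δ (84.2%, against 74.6% of all SUTs there), 13 of 14 in rrp4-G226D (92.9% against 64.3%), 19 of 23 in rrp40-W195R (82.6% against 58.5%) and 40 of 48 in rrp46-L191H (83.3% against 61.4%).

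The rise in rrp6Δ was found at all levels. The SUTs were divided into 4 bins of 176 or 177 by their mean CPM, which also grows with the length of a transcript. From the lowest bin to the highest, the median log2 fold changes in rrp6Δ were 1.01, 0.79, 0.84 and 0.68. The bin of highest level held 18 of the 29 lower SUTs. In rrp46-L191H the medians were -0.01, 0.13, 0.28 and 0.26, so the lowest bin had no rise in its median there. The 10 SUTs with the most counts held 16.5% of all SUT counts in RRP6 and 11.4% in rrp6Δ. SUTs488 had the most counts in every group, with 4.57% in RRP6 and 2.17% in rrp6Δ.

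The control strains differed among themselves. Of the 327 SUTs with at least 5 CPM in a control group, the median ratio of the highest to the lowest control mean was 1.77, and 114 had a ratio of at least 2. SUTs600 was at 13.8 CPM of the library total in RRP46 and at 1.98 CPM in RRP6, SUTs399 at 18.2 CPM in RRP6 and 2.93 CPM in RRP46, and SUTs433 at 13.2 CPM in RRP46 and 2.44 CPM in RRP4. The control strains differ in mating type, markers and plasmid gene, and these cannot be told apart. SUTs453, whose row is beside that of STE3, was at 17.3 CPM in RRP4, 18.2 CPM in RRP45 and 15.3 CPM in RRP46, the MATα controls, against 5.14 CPM in RRP40 and 8.58 CPM in RRP6, the MATa controls. Its log2 fold changes were 0.03 for rrp6Δ, 0.11 for rrp4-G226D, -0.02 for rrp40-W195R and 0.11 for rrp46-L191H, among the smallest of the SUTs with at least 10 CPM, together with those of SUTs772 and SUTs716. Under library totals each such value moves by the shift of its comparison.

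Counted over the 8 comparisons, 137 SUTs (19.4%) were higher in at least 4 and 3 (0.425%) in 5, and none in more than 5, against 11.9% of all features in at least 4 and 1.07% in at least 5. Lower in at least 4 were 12 (1.70%) and in 5 were 4 (0.567%), against 14.2% and 2.83%. None of the tests called 61 SUTs (8.64%, against 5.75% of all features), and 74 (10.5%, against 24.7%) were called in both directions. Some of these comparisons share control libraries, so the count is not one of independent results. SUTs490 was higher by 0.51 in rrp6Δ and 0.47 in rrp4-G226D, by 0.61 and 0.28 in rrp40-W195R and rrp40-S87A and by 0.15 in rrp46-L191H. The last call was lost without any single library but RRP46 replicate 1, and that in rrp40-S87A without RRP40 replicate 2 or 3 or mutant replicate 1 or 2. SUTs592 was lower in 5 missense mutants, though not under library totals in rrp40-W195R (edgeR adjusted p = 0.10), where the call was also lost without RRP40 replicate 1 or 2 or mutant replicate 2 or 3. In rrp46-L127T its call was lost without mutant replicate 3. It rose in rrp6Δ, where it had 6.52, 4.89 and 5.71 CPM against 3.23, 1.51 and 1.95 CPM (1.29; SE 0.21; edgeR adjusted p = 9.33e-05). SUTs161 was lower in both rrp40 and the 3 rrp46 mutants, with log2 fold changes of -1.08 to -0.60, and the call in rrp40-S87A was lost without RRP40 replicate 2 or mutant replicate 3. SUTs318 was lower in 5 mutants: rrp4-G226D, rrp40-W195R, rrp46-L127T, rrp46-L191H and rrp6Δ, though in rrp6Δ it changed sign under library totals, from -0.59 to 0.020. In rrp46-L127T its call was lost without RRP46 replicate 1 or 3 or mutant replicate 2. Together with SUTs656, these SUTs are 5 of 7 tied at 5 calls in 1 direction, and the tie rule left out SUTs89 and SUTs741. Both were higher in the same 5 mutants as SUTs490, SUTs89 by 0.45 (rrp40-S87A) to 0.96 (rrp46-L191H) and SUTs741 by 0.40 (rrp40-S87A) to 0.73 (rrp6Δ). Their calls in rrp40-S87A (edgeR adjusted p = 0.0328 and 0.0417) were lost without any of 5 libraries, at up to 0.14 and 0.15, as was that of SUTs741 in rrp40-W195R (0.0448, at up to 0.17).

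Genes of the pathways that end and destroy such transcripts were called in both directions in the 4 mutants with many calls, and the split depended on the scaling. Of 32 genes tested from a list of exosome, TRAMP, early termination, cleavage and cytoplasmic decay factors, without the family's own gene, 5 were higher and 20 lower in rrp6Δ, against 42.6% and 40.9% of all features, with a median log2 fold change of -0.23. By library totals these counts were 24 and 3. In rrp4-G226D 5 were higher and 18 lower (median -0.14), against 36.1% and 35.9%, and by library totals 22 and 2. The counts were 17 and 3 for rrp40-W195R (median 0.15), against 26% and 26.5%, and by library totals 32 and 0. They were 18 and 4 for rrp46-L191H (median 0.16), against 31.4% and 31%, and by library totals 26 and 0. Of the 4 other mutants, rrp40-S87A had 5 and 0, against 7.69% and 7.8% (11 and 0 by library totals). For rrp46-L127T they were 3 and 0, against 2.63% and 2.62% (2 and 0). For rrp46-Q86I and rrp45-I15P they were 0 and 0 by edgeR under both scalings. Over all features, library totals gave 5806 higher and 1128 lower of 7828 in rrp6Δ and 5148 and 929 of 7703 in rrp4-G226D. They gave 4770 and 590 of 7498 in rrp40-W195R and 3594 and 1276 of 7550 in rrp46-L191H. In rrp40-S87A they gave 1028 and 340 of 7385, and in rrp46-L127T 141 and 241 of 7494. NRD1, for the RNA-binding subunit of the early termination complex, rose by 0.68 in rrp6Δ and 0.69 in rrp4-G226D, and by 0.72 and 0.39 in rrp46-L191H and rrp40-W195R. MTR4, for the helicase of TRAMP and the nuclear exosome, fell by 0.76 in rrp6Δ and 0.40 in rrp4-G226D, and rose by 0.34 in rrp46-L191H. The falls of MTR4 were a little larger than the scaling shifts of 0.60 and 0.33. Under library totals MTR4 was at -0.16 in rrp6Δ and -0.07 in rrp4-G226D, and whether these values passed the threshold is not given. The medians of -0.23 and -0.14 were smaller than the shifts, so these 2 medians are above 0 under library totals. TRF5 rose by 0.55 in rrp6Δ, 0.88 in rrp40-W195R and 0.93 in rrp46-L191H. It was also called higher in rrp40-S87A, by 0.48, and in rrp46-L127T, by 0.50. In rrp4-G226D its value of 0.06 was not called (edgeR adjusted p = 0.32). XRN1, for the cytoplasmic 5′ exonuclease, fell by 0.43 in rrp6Δ, less than the shift of 0.60.

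SUTs288 and SUTs696, which lie beside the genes carried on plasmids, were read apart from the rest. The row of SUTs288 lies between RRP46 and TPC1. By library totals it was at 51.4, 50.7 and 67.1 CPM in RRP46, and in the mutants at 3.53, 4.18 and 4.93 CPM for rrp46-Q86I, at 93.7, 96.9 and 104 CPM for rrp46-L191H and at 49.2, 36.2 and 33.6 CPM for rrp46-L127T, against 0.454 to 4.12 CPM in all other groups. The gene RRP46 moved with it, at 506 ± 22.3 CPM for RRP46, 945 ± 33.6 CPM for rrp46-L191H, 421 ± 22.7 CPM for rrp46-L127T and 86.7 ± 10.6 CPM for rrp46-Q86I (SD, n = 3). Against RRP46, SUTs288 changed by -3.71 in rrp46-Q86I (SE 0.167; edgeR adjusted p = 0.000668). In rrp46-L191H it changed by 0.63 with a SE of 0.124 (edgeR adjusted p = 0.00468), while its log2 value of -0.50 in rrp46-L127T missed the threshold (edgeR adjusted p = 0.208). The part of the plasmid in these values was not tested. The row of SUTs696 lies between PHO80 and RRP6. By TMM-adjusted CPM it was at 5.98, 6.33 and 6.92 CPM in rrp6Δ and 6.24, 5.98 and 5.79 CPM in RRP6, overlapping values with a log2 difference of 0.10 (edgeR adjusted p = 0.387), although RRP6 itself fell by 7.56.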

How the data were processed

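The members and lists were chosen with earlier results of these data known. The authors deposited raw counts of reads per feature, 1 table for each library. STAR, featureCounts 1.22.2, StringTie 2.1.7, DESeq2 1.38.1 and build R64 are named in the submitters' processing notes, and the count headers name files with marked duplicates. Strand, overlap and duplicate handling are not given in the sources used here. The authors also deposited 8 comparison tables with log2 fold changes and their errors, p-values and adjusted p-values, and a mean normalized signal, per the file headers.

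From the counts, edgeR 4.0.16 in R 4.3.3 gave a two-sided robust quasi-likelihood test per feature over the libraries of a comparison (12 for the difference of 2 effects), with TMM scaling, the default expression filter and Benjamini-Hochberg adjustment over all features tested. A SE is the log2 fold change divided by the root of the F value. The procedure was tested on simulated data. SUTs were named by rule: the 6 largest rises and 3 largest falls where over 100 SUTs were called, otherwise 2 each way, and 2 each way between alleles, at a mean of at least 5 CPM without overlap; 3 each way for differences of effects; the 5 most often called in 1 direction, ties by the smallest mean adjusted p; and the 3 steadiest and 3 most variable among controls. Alternatives were library totals, TMM without SUTs and CUTs, no filter, DESeq2 1.42.0, a replicate block, a joint fit, a 2-fold minimum, 1 library left out and, added after seeing the row order, SUTs696 left out. No 2 libraries of a group differed by as little as counting noise (lowest chi-square per feature 4.538). The p-values measure the spread between 3 cultures.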

Additional observations from a re-analysis of the deposited data

Results flagged for a closer look

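The effect of rrp6Δ on SUTs differed from that of each of 3 missense mutants by the test of the difference itself. This held for 234 of 700 SUTs against rrp4-G226D, 375 of 699 against rrp40-W195R and 433 of 700 against rrp46-L191H. Over all features it held for 3826 of 7872 (48.6%), 4825 of 7857 (61.4%) and 5609 of 7863 (71.3%). The SUTs with the largest differences among those with a mean of at least 5 CPM follow, each past an edgeR adjusted p of 0.05. Values are log2 differences, with the effects in the 2 families where they help. A fall in rrp6Δ smaller than its scaling shift of 0.60 is not a fall under library totals.

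Against rrp4-G226D, SUTs593, a neighbour of SUTs592 between HXT2 and CLU1, differed by 1.67 (SE 0.116), rising by 1.53 in rrp6Δ with a value of -0.12 in rrp4-G226D. SUTs771, beside the fatty acid synthase gene FAS2, differed by 1.13 (SE 0.118), and SUTs553, beside the ribosomal protein gene RPL38, by 1.09 (SE 0.151). SUTs643 differed by -1.29 (SE 0.113), falling by 1.37 in rrp6Δ with a value of -0.05 in rrp4-G226D. SUTs322, between the excision repair gene RAD2 and the nicotinic acid transporter gene TNA1, differed by -1.27 (SE 0.186). SUTs79, between NAT1 and PRM7, differed by -0.78 (SE 0.092), with a value of -0.60 in rrp6Δ that was gone under library totals.

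Against rrp40-W195R, SUTs549, beside the glycogen synthase gene GSY2, differed by 1.77 (SE 0.197), SUTs13, beside the ADP/ATP carrier gene PET9, by 1.75 (SE 0.179), and SUTs99 by 1.71 (SE 0.239). In rrp40-W195R the values of these 3 were -0.01, -0.09 and -0.05. SUTs427 differed by -1.39 (SE 0.12), SUTs643 by -0.89 (SE 0.15) and SUTs106 by -0.68 (SE 0.116). In rrp6Δ SUTs106 had -0.45 under TMM and 0.15 under library totals.

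Against rrp46-L191H, SUTs433 differed by 2.50 (SE 0.167), rising by 1.18 in rrp6Δ and falling by 1.31 in rrp46-L191H. SUTs418, beside SUI2, for the alpha subunit of the initiation factor eIF2, differed by 2.31 (SE 0.185), rising by 1.56 and falling by 0.75. SUTs549 differed by 2.02 (SE 0.173). SUTs247, between the alcohol dehydrogenase gene ADH4 and the zinc transporter gene ZRT1, differed by -1.09 (SE 0.159), SUTs79 by -1.06 (SE 0.0903) and SUTs193, beside RMD6, by -0.82 (SE 0.176).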

How the results depend on the processing

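Of the 2153 values of single SUTs under the alternatives, 2036 kept their direction and side of the threshold. Of the rest, 71 lost the call, 44 gained it and 2 reversed. These 2 were SUTs318 in rrp6Δ, which went to 0.020, and SUTs696 in rrp4-G226D, which went to 0.010, under library totals. The sign changes of SUTs427 and SUTs106 in rrp6Δ under library totals, given where these SUTs are described, are not among these 2. The SUTs called, listed from here on for rrp6Δ, rrp4-G226D, rrp40-W195R, rrp46-L191H, rrp40-S87A, rrp46-L127T, rrp46-Q86I and rrp45-I15P, fell with a 2-fold minimum to 248, 110, 33, 50, 0, 2, 0 and 0, and to 26 and 45 in the direct comparisons of the rrp40 and rrp46 alleles. With library totals they rose to 476 in rrp40-W195R, 439 between the rrp40 alleles and 375 for the difference between rrp6Δ and rrp4-G226D. The joint fit gave 55 for rrp40-S87A, 32 for rrp46-L127T, 5 for rrp46-Q86I and 0 for rrp45-I15P. DESeq2 gave 4 for rrp46-Q86I and 7 for rrp45-I15P, TMM without SUTs and CUTs gave 0 for rrp46-Q86I, and no low-count filter gave 2 for rrp45-I15P. The cause of these moves was not tested. The other 72 alternatives for counts of calls stayed within 1.5 times the count reported, among them those without SUTs696.

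Leaving out 1 library gave 573 to 584, 468 to 503, 199 to 277, 296 to 321, 11 to 30, 2 to 29, 0 to 6 and 1 to 6 calls in the order above. It gave 177 to 247 and 216 to 262 between the alleles, and 194 to 243, 340 to 372 and 409 to 432 for the differences of effects from rrp4-G226D, rrp40-W195R and rrp46-L191H. In rrp40-S87A the calls moved by over 1.5 times without RRP40 replicate 1 (20) or 2 (11) or the mutant replicate 3 (14). In rrp46-L127T every library moved them: without RRP46 replicate 1, 2 or 3 there were 2, 3 and 4, and without mutant replicate 1, 2 or 3 there were 29, 3 and 2. In rrp46-Q86I RRP46 replicate 1 (0) or 3 (6) or mutant replicate 1 (0) or 3 (0) did so, and in rrp45-I15P mutant replicate 1 (6). In no comparison did all same-numbered pairs correlate above 0.1, the limit set for pairing, and the replicate block gave 5 calls in rrp46-Q86I, 8 in rrp45-I15P and counts within 1.5 times elsewhere. SUTs of few counts limit the precision: 573 of the 847 SUT rows had at least 100 counts in at least 3 libraries, and their median changes kept within the spread of the libraries of those reported.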

Other observations

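In the authors' deposited tables, 539 SUTs were higher and 25 lower in rrp6Δ at an adjusted p under 0.05, against 38.9% and 39.7% of all features listed. In the authors' deposited table for rrp4-G226D, 442 were higher and 15 lower, against 31% and 33.9%. For rrp40-W195R the authors' deposited table had 218 and 37, against 22.7% and 25.5%, and for rrp46-L191H 241 and 68, against 27.9% and 27.9%. The authors' deposited tables listed 8 and 17 for rrp40-S87A, against 5.96% and 7.27%, and 8 and 15 for rrp46-L127T, against 7.38% and 5.13%. For rrp46-Q86I the authors' deposited table had 0 and 6, against 1.13% and 0.323%, and 7 and 0 for rrp45-I15P, against 0.602% and 0.0501%.

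Some SUT rows lie in the same gap between gene rows. Of the 645 gaps that held a member, 55 held more than 1, with 116 members in all and at most 4. In rrp6Δ, 51 gaps held exactly 2 members that were both tested. Both were higher in 35 of these gaps. In 12 gaps 1 was higher and the other not called, and in 2 gaps 1 was higher and the other lower. The 80.2% of all SUTs tested that were higher is a share of single SUTs, so it is not a measure for pairs. Neighbouring SUTs may share reads where they overlap, which the files do not show.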
